A study of Mus musculus with 6 samples.

Results

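The genes described here are 5 genes of the endothelin pathway of the developing lower jaw, *Edn1*, *Ece1*, *Ednra*, *Mef2c* and *Gsc*, out of 21951 protein-coding genes. For each gene, every Gli3 or Hand2 ChIP-seq peak whose midpoint lay within 100 kb of the gene body was taken, which gave 70 of the 70762 peaks. ChIP-seq sequences the DNA fragments that are pulled down with a protein, and a peak is an interval where such fragments pile up. Antibodies against the FLAG epitope were used on facial tissue of CD1 mouse embryos that carried a FLAG tag in the endogenous *Gli3* or *Hand2* locus. The labels call both alleles 3XFlagbio, while the study's methods use that name for *Gli3* and call the *Hand2* allele 3xFlag. There were 3 groups of 2 biological replicates, 6 samples in all: Gli3 3XFlagbio whole face, Gli3 3XFlagbio mandibular prominence (MNP, the part of the embryonic face that forms the lower jaw) and Hand2 3XFlagbio MNP. The whole face was made up of the frontonasal and maxillary prominences together with the MNP, so the whole face samples include the tissue of the MNP samples. The samples are labelled E11.5, the text of the series gives E10.5, and each sample was made from the pooled tissue of several embryos, so no value belongs to 1 embryo or 1 cell type.

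The deposited data were 1 peak list per group, with 5427 peaks for Gli3 in the MNP, 5752 for Gli3 in the whole face and 59583 for Hand2 in the MNP. Each entry held a position and the names of the peaks of both replicates merged into it, and no height, score or read count. No value per replicate could therefore be given, no difference between groups could be tested, and the depth behind a peak is unknown. The tissue labels could not be checked against marker genes, since peak lists hold no expression values. The lists also differed in their making: the median peak was 577 bp wide for Gli3 in the MNP, 222 bp for Gli3 in the whole face and 451 bp for Hand2. Differences between the whole face and MNP lists thus cannot be told apart from differences in how the lists were made.

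Endothelin signalling gives cells of the lower jaw their identity. *Edn1* encodes the secreted ligand, *Ece1* the protease that cuts its inactive precursor into the active peptide, and *Ednra* the G protein-coupled receptor on the neural crest cells that receive it. The signal acts through the transcription factor Mef2c and the Dlx5 and Dlx6 homeodomain proteins to turn on *Hand2*, which encodes a basic helix-loop-helix factor. *Gsc* encodes a homeodomain protein that is known as a target of the same signal, so the name "upstream of Hand2" fits it less well than it fits the other 4 genes. Gli3 is a zinc finger factor of the Hedgehog pathway that can repress or activate the target genes of the pathway.

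The regions that carry the findings are shown first, because each of them is a place where Gli3 was detected near an endothelin gene, and the *Edn1* promoter is added as the one gene start of the ligand, where Hand2 was detected alone. All are the plus strand of GRCm38 (mm10), 5′ to 3′, as given by the RefSeq genome. Capitals mark exact matches, on either strand, to the high-affinity Gli motif GACCACCC, the Hand-type E-box CAGATG or the homeodomain core TAATTG.
*Ece1* intronic region shared by all 3 lists, middle of the Gli3 MNP peak, chr4:137920726-137921025: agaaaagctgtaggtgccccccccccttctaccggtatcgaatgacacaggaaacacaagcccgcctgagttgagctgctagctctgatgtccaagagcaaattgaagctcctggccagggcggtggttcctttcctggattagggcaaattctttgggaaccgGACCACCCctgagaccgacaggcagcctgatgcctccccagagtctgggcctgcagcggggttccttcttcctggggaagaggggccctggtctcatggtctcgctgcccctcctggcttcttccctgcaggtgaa
*Ece1* intronic region with both Gli3 lists and no Hand2 peak, Gli3 MNP peak, chr4:137892774-137893070: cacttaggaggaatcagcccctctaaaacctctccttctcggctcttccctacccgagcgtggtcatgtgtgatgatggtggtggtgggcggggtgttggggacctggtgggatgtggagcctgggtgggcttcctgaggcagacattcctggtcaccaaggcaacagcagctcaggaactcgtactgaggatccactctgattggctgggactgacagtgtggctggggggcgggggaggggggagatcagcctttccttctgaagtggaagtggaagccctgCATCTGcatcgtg
*Ednra* upstream region, Gli3 whole face peak, chr8:77733794-77734085: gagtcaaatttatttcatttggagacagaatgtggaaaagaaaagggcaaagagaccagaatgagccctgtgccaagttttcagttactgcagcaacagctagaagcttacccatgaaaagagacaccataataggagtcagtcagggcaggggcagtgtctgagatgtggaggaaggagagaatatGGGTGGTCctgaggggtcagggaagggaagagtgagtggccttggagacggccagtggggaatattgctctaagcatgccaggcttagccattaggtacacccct
*Mef2c* intronic region, middle of the Gli3 whole face peak, chr13:83567574-83567873: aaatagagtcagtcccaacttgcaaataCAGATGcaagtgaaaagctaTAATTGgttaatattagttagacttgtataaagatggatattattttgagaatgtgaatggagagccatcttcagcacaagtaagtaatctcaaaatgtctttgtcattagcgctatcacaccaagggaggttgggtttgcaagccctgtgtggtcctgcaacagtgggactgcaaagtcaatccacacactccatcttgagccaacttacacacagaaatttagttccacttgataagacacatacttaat
*Gsc* promoter region, middle of the Gli3 whole face peak, chr12:104473417-104473716: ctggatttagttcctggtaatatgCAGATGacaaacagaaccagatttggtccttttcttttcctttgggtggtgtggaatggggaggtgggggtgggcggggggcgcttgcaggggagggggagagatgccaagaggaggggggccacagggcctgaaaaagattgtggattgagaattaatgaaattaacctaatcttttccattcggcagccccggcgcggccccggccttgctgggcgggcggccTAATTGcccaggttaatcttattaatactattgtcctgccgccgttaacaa
*Gsc* distal upstream region, Gli3 whole face peak, chr12:104532007-104532240: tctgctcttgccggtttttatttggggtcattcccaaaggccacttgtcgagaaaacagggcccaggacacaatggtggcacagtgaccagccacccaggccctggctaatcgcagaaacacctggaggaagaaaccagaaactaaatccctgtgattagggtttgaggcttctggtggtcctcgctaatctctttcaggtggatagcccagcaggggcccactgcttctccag
*Gsc* 3′ flank, Gli3 MNP peak outside the gene, chr12:104471009-104471208: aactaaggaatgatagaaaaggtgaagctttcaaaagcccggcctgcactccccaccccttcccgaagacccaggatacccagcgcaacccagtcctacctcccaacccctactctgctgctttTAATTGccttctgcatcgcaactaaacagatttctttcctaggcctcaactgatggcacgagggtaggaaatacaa
*Edn1* promoter, Hand2 peak upstream of the gene start, chr13:42301220-42301475: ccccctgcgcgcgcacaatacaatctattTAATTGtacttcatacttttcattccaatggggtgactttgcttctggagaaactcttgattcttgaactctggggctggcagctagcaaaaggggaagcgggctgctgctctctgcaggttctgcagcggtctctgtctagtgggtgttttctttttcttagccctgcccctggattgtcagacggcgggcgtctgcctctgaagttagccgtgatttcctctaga

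GACCACCC was found in the shared *Ece1* region at chr4:137920890-137920897, and on the minus strand of the *Ednra* upstream region at chr8:77733981-77733988. CAGATG was found in the *Mef2c* region, in the *Gsc* promoter region and, on the minus strand, in the *Ece1* region without Hand2. The distal *Gsc* region held none of these exact motifs. A match is a description of the letters in the window, and no match says nothing about the factor.

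Hand2 peaks lay near all 5 genes, 61 in total, whereas Gli3 peaks were few, 3 in the MNP list and 6 in the whole face list. At least 1 Hand2 peak within 100 kb was found for 89.0% of all protein-coding genes, so its presence near all 5 is close to the background. A Gli3 MNP peak was found near 2 of the 5 genes (*Ece1* and *Gsc*), compared to 56.1% of all genes, and a Gli3 whole face peak near 4 of the 5 (all but *Edn1*), compared to 46.1%. With 5 genes these shares were read only as a description. What set the genes apart from each other was the number of Hand2 peaks, which was 4 at *Edn1*, 8 at *Mef2c*, 11 at *Ece1*, 17 at *Gsc* and 21 at *Ednra*. The median over all protein-coding genes was 6 and the 90th percentile was 14. Thus, only *Ednra* and *Gsc* of the 5 genes lay above the 90th percentile, and *Edn1* was the only one below the median. A window around a long gene is longer, and per 100 kb of window the counts were 1.94 peaks at *Edn1*, 2.20 at *Mef2c*, 3.63 at *Ece1*, 8.03 at *Ednra* and 8.41 at *Gsc*. By this measure *Gsc* and *Ednra* again stood first, with 1.6% and 2.04% of all genes as dense or denser. *Mef2c*, with 53.9%, was near the middle of the genome. For Gli3, only the whole face density at *Gsc* exceeded the 90th percentile of its list, with 0.99 compared to 0.967 peaks per 100 kb. That value rests on 2 peaks, and 8.05% of all genes were as dense or denser.

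**Figure D1:**
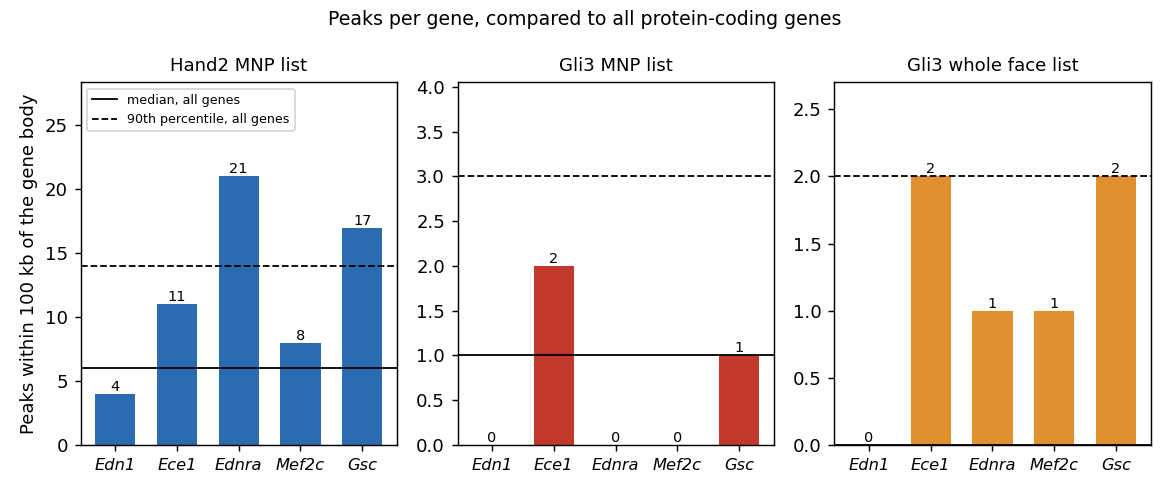
Number of peaks of each list within 100 kb of the gene body, 1 bar per gene, with the median (solid line) and the 90th percentile (dashed line) over 21951 protein-coding genes. Bars of Hand2 peaks at *Ednra* (21) and *Gsc* (17) rise above the dashed line, and no bar of the Gli3 lists does.

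**Figure D2:**
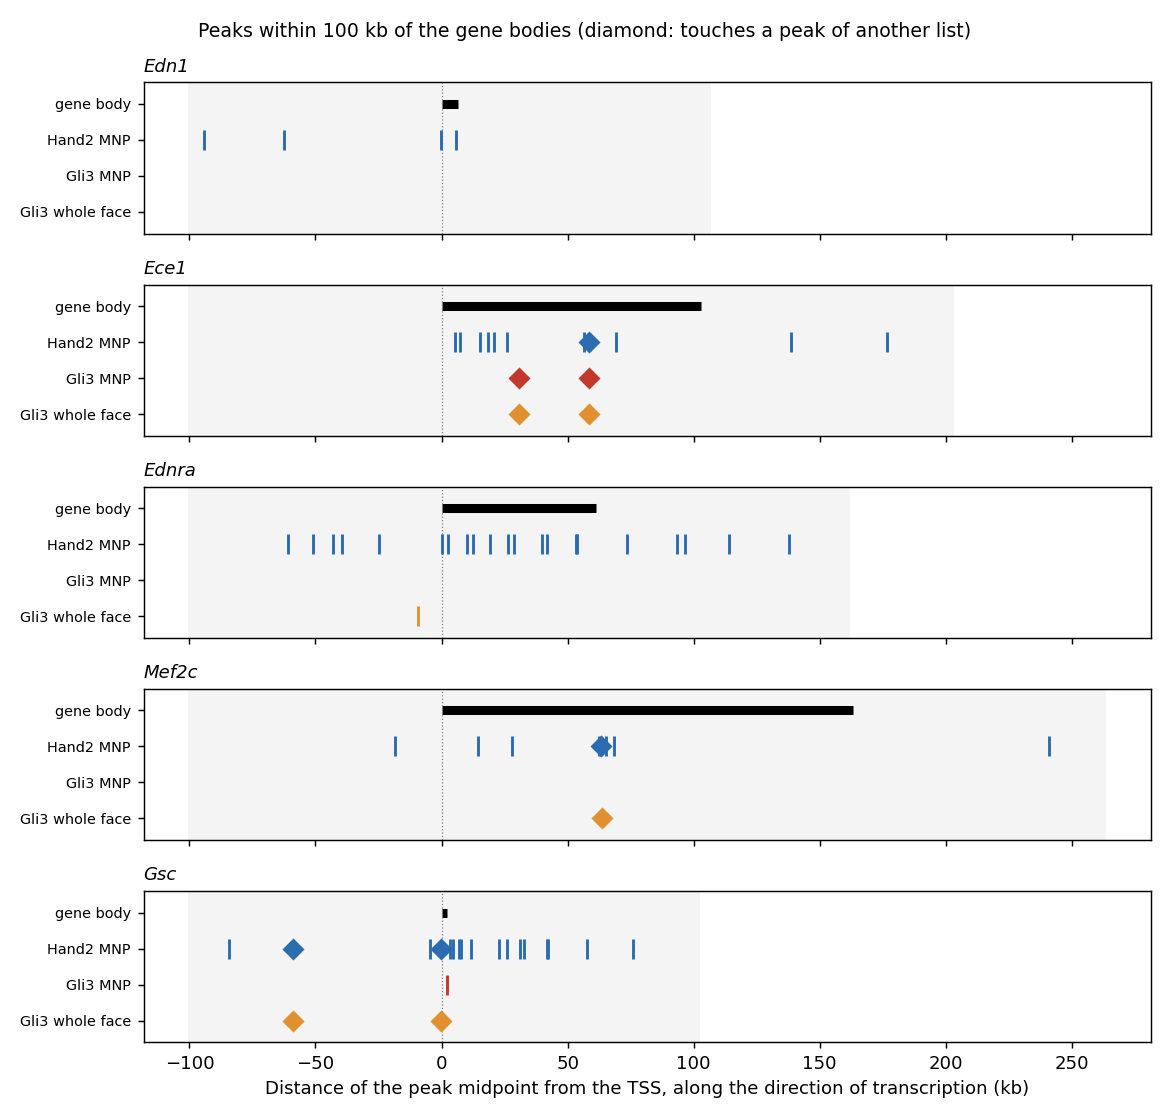
Position of each of the 70 peaks as distance of its midpoint from the transcription start site (TSS) in kb, with transcription running to the right, the gene body in black and the 100 kb window in grey. Diamonds are peaks that touch a peak of another list, which occurred at *Ece1*, *Mef2c* and *Gsc*, and bars are peaks that touch none.

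Some of the gene starts were covered by a Hand2 peak, and none by a Gli3 peak. A Hand2 peak lay over the TSS of *Edn1*, *Ednra* and *Gsc*, 3 of the 5 genes, compared to 22.1% of all protein-coding genes. None of the 5 TSSs was covered by a Gli3 MNP peak (9.93% of all genes) or by a Gli3 whole face peak (1.91% of all genes). These shares are low, so none of 5 was not read as a result about these genes. A Gli3 whole face peak did lie near the *Gsc* TSS, with its midpoint 236 bp upstream. The starts of *Ece1* and *Mef2c* had no peak midpoint of any list within 5 kb.

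Overlaps of Gli3 and Hand2 peaks were few in number, as were the Gli3 peaks themselves. Only 1 of the 3 Gli3 MNP peaks overlapped Hand2 by 1 bp or more, where the share over the whole list was 61.4%. Of the 6 Gli3 whole face peaks, 4 did so, where the whole list had 47.6%. By gene, a Gli3 MNP peak touching Hand2 was found at 1 of the 5 genes (41.6% of all genes had one) and a Gli3 whole face peak touching Hand2 at 3 of the 5 (25.8% of all genes). Seen from Hand2, 4 of its 61 peaks touched a Gli3 peak of either list, or 6.56%, compared to 8.31% of the whole Hand2 list. For the Gli3 MNP list alone, 1 of the 61 did so, or 1.64%, compared to 5.89%.

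*Edn1*, the ligand gene at chr13:42301476-42307990 on the plus strand, had the fewest peaks within 100 kb, and all 4 were Hand2 peaks. This order depended on the window, since with 200 kb *Edn1* had 11 Hand2 peaks and *Mef2c* 9. The first, at chr13:42301220-42301557, was 338 bp wide and covered the TSS, with its midpoint 88 bp upstream. Its upstream bases, printed above, hold TAATTG, and the peak holds no CANNTG, the general E-box. A second, of 420 bp at chr13:42307040-42307459, was centred in an untranslated part of an *Edn1* exon, 5.77 kb downstream of the TSS. The other two were between protein-coding genes, 62.3 kb and 94.2 kb upstream, and the farther one, 482 bp wide, held the gene's only CAGATG. No peak was listed in the 100 kb downstream of the gene. The nearest Gli3 MNP peak lay 251 kb downstream, nearest to the TSS of *Phactr1*, and the nearest Gli3 whole face peak lay 248 kb upstream in an intron of *Hivep1*.

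*Ece1*, the processing enzyme at chr4:137862237-137965229 on the plus strand, was the only one of the 5 genes with a region that appeared in all 3 lists. This region lies 58.5 to 58.6 kb downstream of the TSS, inside the gene. The Hand2 peak at chr4:137920430-137921020 (591 bp) contained the whole of the Gli3 whole face peak at chr4:137920615-137920845 (231 bp) and 95.3% of the Gli3 MNP peak at chr4:137920715-137921035 (321 bp). The Gli3 MNP and whole face peaks shared 131 bp. The GACCACCC of this region lies in the Gli3 MNP and Hand2 peaks but beyond the end of the whole face peak. The region is labelled intronic above because the midpoints of the Hand2 and whole face peaks lie in an intron. All 3 peaks nevertheless touch an *Ece1* exon. The midpoint of the Gli3 MNP peak falls in an exon of a processed, non-coding *Ece1* transcript. A coding exon of *Ece1* starts at the base after the end of the Hand2 peak.

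A second *Ece1* region was in both Gli3 lists and had no Hand2 peak. It lies in an intron 30.6 to 30.7 kb downstream of the TSS, with the Gli3 MNP peak at chr4:137892774-137893070 (297 bp) and the Gli3 whole face peak at chr4:137892743-137892960 (218 bp) sharing 187 bp. The CAGATG near the end of the printed sequence lies outside the whole face peak. The 11 Hand2 peaks of the *Ece1* window were all intronic, 9 in *Ece1* and 2 in the neighbouring *Eif4g3*, and the closest to the TSS was 5.20 kb away. Their widths ran from 289 to 959 bp. No Hand2 peak lay upstream of *Ece1* within the window.

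*Ednra*, the receptor gene at chr8:77663031-77724464 on the minus strand, had the most Hand2 peaks, and they were spread over the gene and both flanks. Of the 21 peaks, 11 lay inside the gene, 5 upstream between 24.8 and 61.0 kb from the TSS, and 5 beyond the 3′ end, where the TSS of *Tmem184c* was nearer. The peak at chr8:77610263-77610973 was centred 80 bp from that TSS, in an exon of *Tmem184c*. A non-coding gene on the opposite strand, *4933431K23Rik*, spans *Ednra* and its promoter, and positions do not tell which of these genes a peak belongs to. Widths ran from 278 to 1093 bp with a median of 480 bp, and 12 of the 21 were at least as wide as the median peak of the list. The promoter peak at chr8:77723908-77724597 was 690 bp wide, covered the TSS, had its midpoint in an untranslated part of an exon, and was merged from 2 entries of each replicate. The next Hand2 peak was intronic, 2.40 kb downstream, and held 1 CAGATG. The widest was intronic, at chr8:77713824-77714916, 10.1 kb downstream, and held 2 CAGATG over its whole length. Gaps between neighbouring Hand2 midpoints had a median of 7787 bp and were at most 25 kb.

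The only Gli3 peak near *Ednra* came from the whole face. It was 292 bp wide, at chr8:77733794-77734085, 9.47 kb upstream of the TSS, and touched no Hand2 peak. The region was the only one of the 6 whole face peaks with GACCACCC. The nearest Gli3 MNP peak was 784 kb away. Thus 21 Hand2 peaks and no Gli3 MNP peak were listed within 100 kb of the receptor gene in the same tissue. The Hand2 list is far longer (59583 peaks, compared to 5427), and only 56.1% of all genes had a Gli3 MNP peak.

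*Mef2c*, which encodes a MADS-box factor that acts downstream of the receptor, lies at chr13:83504034-83667080 on the plus strand. Its 8 Hand2 peaks were between 337 and 1042 bp wide, and 6 of them lay in introns. A group of 4 stood close together, from 62.4 to 68.5 kb downstream of the TSS, and the gene's only Gli3 peak lay among them. That whole face peak, chr13:83567545-83567902 (358 bp), shared 36 bp with the Hand2 peak at chr13:83566624-83567580 (957 bp), which is 10.1% of the Gli3 peak, and it was no longer counted as shared when at least 50% of the peak had to be covered. The 957 bp Hand2 peak held 3 CAGATG in its middle 300 bp and was the only *Mef2c* Hand2 peak with any. The last peak of the group lay 136 bp from the start of an internal *Mef2c* transcript. The CAGATG of the Gli3 peak, at chr13:83567602-83567607, lies beyond the end of that Hand2 peak. The nearest Gli3 MNP peak lay 414 kb upstream of the TSS.

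*Gsc*, the homeobox gene at chr12:104471209-104473330 on the minus strand, had the densest set of Hand2 peaks and was touched by all 3 lists within a few kb. The Hand2 peak at chr12:104473054-104473775 (722 bp) covered the TSS and contained the whole Gli3 whole face peak at chr12:104473401-104473732 (332 bp), whose midpoint lies 236 bp upstream. CAGATG and TAATTG both lie within both peaks. This interval also overlaps an exon of *Gm10000*, a non-coding gene that starts from the other side of the same promoter. A second Gli3 whole face peak, 234 bp at chr12:104532007-104532240, lay 58.8 kb upstream and was wholly inside a Hand2 peak of 304 bp. The Gli3 MNP peak was at the 3′ end of the gene, chr12:104471009-104471366 (358 bp), 2.14 kb downstream of the TSS. Only its part outside the gene is printed above, and the rest reached into a *Gsc* exon. This peak touched neither a Hand2 nor a whole face peak. The Gli3 peaks of *Gsc* in the whole face and MNP lists thus did not touch each other, while those of *Ece1* lay at the same 2 places. Over the whole lists, 39.2% of Gli3 MNP peaks touched a whole face peak, and 37.6% of whole face peaks touched a Gli3 MNP peak. With so few peaks, this was not read as a difference between genes or tissues.

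The 17 Hand2 peaks of *Gsc* were between 207 and 1142 bp wide with a median of 414 bp. All had their midpoint outside the short gene, 4 lay within 5 kb of the TSS, and 4 were upstream. The 4 farthest downstream were nearer to the TSS of *Serpina3n*. The median gap between neighbouring midpoints was 4194 bp.

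**Figure D3:**
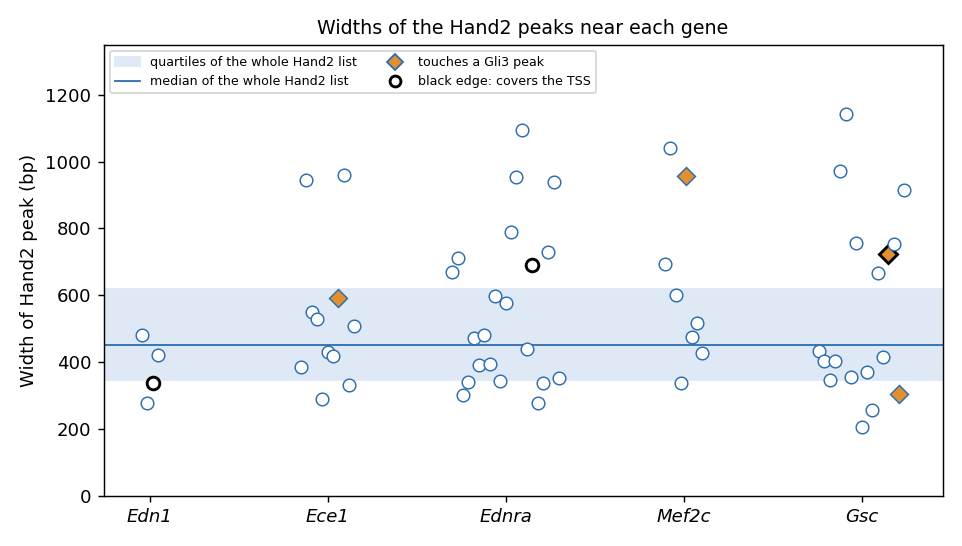
Width in bp of each of the 61 Hand2 peaks by gene, with the median and quartiles of the whole Hand2 list (451, 345 and 619 bp). Filled diamonds mark the 4 peaks that touch a Gli3 peak, black edges the 3 peaks that cover a TSS, and the widest peak was 482 bp at *Edn1* and between 959 and 1142 bp at the other 4 genes.

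Hand2 peaks differed in their E-boxes by gene. In the 300 bp around the midpoint, CAGATG on either strand was found in 24 of the 61 Hand2 peaks, or 39.3%, compared to 36.0% of the whole Hand2 list. At *Gsc* 12 of 17 peaks held it, at *Ednra* 7 of 21, at *Ece1* 3 of 11, at *Edn1* 1 of 4 and at *Mef2c* 1 of 8. Only *Gsc* was above the share of the list. Peaks near 1 gene are not replicates, and no test was made. The general E-box CANNTG, which includes CAGATG, was in 53 of 61 peaks (86.9%, whole list 84.9%). The homeodomain cores were at the level of the list too, with TAATTA in 7 peaks (11.5%, list 9.38%) and TAATTG in 8 (13.1%, list 14.1%).

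**Figure D4:**
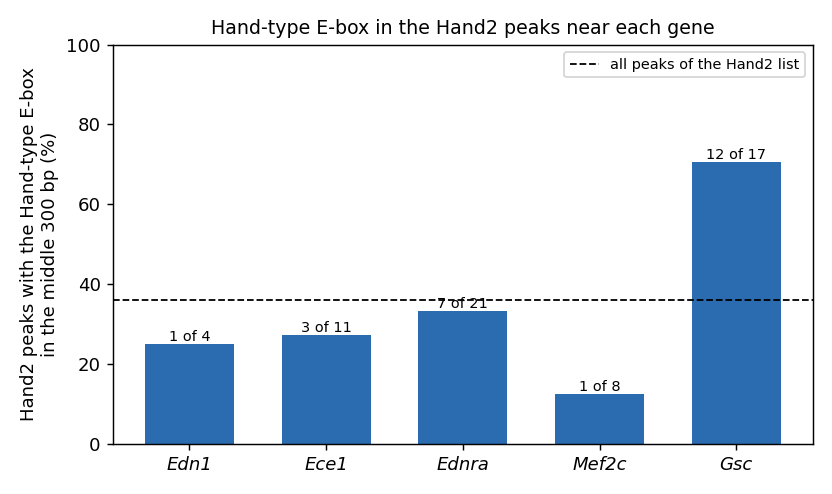
Percent of the Hand2 peaks of each gene that hold CAGATG in the 300 bp around the midpoint, with the number of peaks above each bar and the share of all Hand2 peaks (36.0%) as a dashed line. Only the bar of *Gsc* (12 of 17) stands above the line.

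Exact Gli motifs were found in a minority of the Gli3 peaks, as in the whole lists. With 9 Gli3 peaks, the counts were read only as a description. GACCACCC was in 1 of 3 Gli3 MNP peaks (list 9.96%) and in 1 of 6 Gli3 whole face peaks (list 20.4%). The exact divergent Gli motif GACCTCCC was in none of the 9 Gli3 peaks (4.06% of the MNP list and 6.62% of the whole face list). It was in 1 of the 61 Hand2 peaks, 7.59 kb downstream of the *Gsc* TSS (list 1.05%). The study sorted its overlapping peaks by a looser rule, at least CCTCC in a peak without a canonical Gli motif. That rule was not applied here, so these counts cannot be set beside the study's share of divergent peaks. When 1 mismatch to GACCACCC was allowed, a measure chosen after the exact matches were seen, 8 of the 9 Gli3 peaks held a match, among them CACCACCC in the *Gsc* promoter region. Such near matches were in 46.3% of the Gli3 MNP list and 69.0% of the whole face list. The exception was the whole face peak of the shared *Ece1* region, whose best match had 6 of 8 bases.

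The names of the merged entries number the peaks of each replicate in genome order, which allowed a count of the MNP peaks of 1 replicate that did not enter the list. Between the listed Gli3 MNP peaks that flank each window, replicate 1 had 4 unlisted numbers at *Edn1*, 5 at *Ece1*, 13 at *Ednra*, 2 at *Mef2c* and 13 at *Gsc*, whereas replicate 2 had 0 at the first 4 genes and 1 at *Gsc*. The highest peak number in the Gli3 MNP list was 19518 for replicate 1 and 6394 for replicate 2. The flanking peaks can lie far apart (3514 kb at *Ednra*), so an unlisted number need not fall in the window. Hand2 replicates were closer, with highest numbers of 75674 and 82372, and 0 to 9 unlisted numbers per gene in replicate 1 and 1 to 10 in replicate 2. The absence of a Gli3 MNP peak at *Edn1*, *Ednra* and *Mef2c* thus means that no peak was shared by both replicates, and signal in 1 of them was not tested.

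The other genes of the pathway were taken as a list of 20: further ligands, receptors and proteases, G proteins and phospholipases, the other Mef2 genes, *Gsc2*, and the Hand, Dlx and *Barx1* genes of the jaw. All 20 had a Hand2 peak within 100 kb (89.0% of all protein-coding genes), with a median of 12 peaks, compared to 11 for the 5 genes. A Gli3 MNP peak was near 15 of the 20 (56.1% of all genes) and a Gli3 whole face peak near 14 (46.1%). The 15 genes with peaks of both Gli3 and Hand2 in the MNP (all protein-coding genes, 55.6%) had 1 to 4 Gli3 MNP peaks and 2 to 20 Hand2 peaks each. A Gli3 MNP peak that touched Hand2 was found at 11 of the 20 genes and at 1 of the 5 (41.6% of all genes). The other 4 genes with a Gli3 MNP peak, *Ecel1*, *Plcb4*, *Mef2a* and *Hand1*, had 1 each, which did not touch Hand2, and *Gna11*, a G protein gene, had 3, of which 1 did. *Dlx5* and *Dlx6*, which stand side by side and share their peaks, had 4 Gli3 MNP peaks, all of them touching Hand2, and 20 Hand2 peaks. *Barx1*, which encodes a homeodomain protein of the arch mesenchyme, had 2 and 13, and *Edn3*, the ligand that mainly acts through the other receptor, had 2 and 20, with both Gli3 peaks touching Hand2 in each case. *Ednrb*, that other receptor, had 16 Hand2 peaks and no Gli3 peak of either list. *Hand2* itself had 20 Hand2 peaks, no Gli3 MNP peak, and 1 Gli3 whole face peak, which touched a Hand2 peak.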

How the data were processed

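Anti-FLAG ChIP-seq was performed on 2 biological replicates of each of 3 groups. Single-end reads of 75 bp were aligned by the authors to GRCm38 (mm10) using bwa, and peaks found in both replicates were joined using bedtools, while the submitters' processing notes also name HOMER. Versions, and the peak caller of these lists, are not given in the sources used here. The deposited files hold interval positions and merged peak names (no score, signal or read count), and names in the whole face list refer to a mock and an input for each replicate. Reads were not analysed here.

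Genes were taken from GENCODE vM21 and sequence from the RefSeq GRCm38 genome. A peak was assigned to a gene when its midpoint lay within 100 kb of the gene body, and peaks were shared when they had at least 1 bp in common. Promoter-near means within 5 kb of the TSS. Exact motifs were searched on both strands in 300 bp around the midpoint for the Gli motifs GACCACCC and GACCTCCC, the E-boxes CAGATG and CANNTG and the homeodomain cores TAATTA and TAATTG. The peaks described singly were those that touch another list, lie within 5 kb of the TSS or are nearest to it, with some wide or motif-bearing peaks, and the other pathway genes given singly, named after their values were seen. Python 3.11.15, numpy 2.4.6, pysam 0.24.0 and samtools 1.23.1 were used, and the overlap and motif functions were tested on simulated data. The genes, gene lists and measures were chosen with earlier results of these data known. Alternatives were windows of 50 and 200 kb, distance from the TSS, nearest TSS, a minimum width, entries of both replicates, stricter overlap rules and other motif windows.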

Additional observations from a re-analysis of the deposited data

How the results depend on the processing

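The counts over the 5 genes were recomputed under each alternative. Of the values, 40 stayed within 1.5 times the reported one and 10 did not. The alternative that kept only peaks with entries of both replicates could change no count, since every listed peak had both. Its values are among the 40. With a window of 200 kb, Hand2 peaks rose in number from 61 to 96 and Gli3 whole face peaks from 6 to 11, with 7 whole face peaks touching Hand2 and 7 Hand2 peaks touching a Gli3 list. By gene, 13 counts moved, among them Hand2 peaks at *Edn1* (2 with 50 kb, 11 with 200 kb), *Ece1* (17 with 200 kb) and *Gsc* (28 with 200 kb), and *Ednra* whole face Gli3 peaks (4 with 200 kb). With peaks narrower than their list's median left out, 32 Hand2 peaks remained, and the Gli3 MNP count and its count shared with Hand2 both fell to 0, since all 3 Gli3 MNP peaks are that narrow. When 50% of a peak had to be covered, 2 Hand2 peaks were shared with Gli3. With at least 7 of the 8 bases of GACCACCC in place of the exact motif, chosen after seeing the data, 3 Gli3 MNP peaks and 5 whole face peaks held a match. No paired analysis was possible because the lists hold no values per replicate, and leaving out a replicate was not possible for the same reason. Depth is unknown, and a peak below the calling threshold in either replicate is not in these lists.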

Other observations

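When the window was replaced by the whole stretch between the neighbouring protein-coding genes, a choice made after the windows had been seen, *Gsc* had 29 Hand2 peaks in 273 kb (10.6 per 100 kb), *Ednra* 34 in 603 kb (5.64), *Ece1* 9 in 197 kb (4.58), *Edn1* 14 in 488 kb (2.87) and *Mef2c* 28 in 2425 kb (1.15). *Gsc* and *Ednra* were again the densest. The Gli3 MNP list had 2 peaks in the stretch of *Ece1*, 1 in each of those of *Edn1*, *Mef2c* and *Gsc*, and 0 in that of *Ednra*, and the whole face list had 1 at *Edn1*, 2 each at *Ece1*, *Ednra* and *Mef2c*, and 3 at *Gsc*.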
